A study of Mus musculus with 12 samples.

Results

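The genes described are the mouse cyclin-dependent kinase (CDK) inhibitors Cdkn1a, Cdkn1b, Cdkn1c, Cdkn2a, Cdkn2b, Cdkn2c and Cdkn2d, together with Dab2ip, 8 of 22367 protein-coding genes in the GENCODE annotation of mm9. They were chosen by name, and for each the base pairs under H3K27me3 peaks were counted in a promoter window, the 5' end of the gene with 2500 bp on either side (5001 bp), and in a gene locus, the gene body with 5 kb on either side. The cells were iMEFs, immortalized mouse embryonic fibroblasts, of the C2 line, a c-Myc transformed clone in which the remaining floxed Ezh2 allele can be deleted with OHT (4-hydroxytamoxifen, which activates a CreERT2 recombinase expressed from ROSA26). Experiment 1 held 2 Ezh2 WT/WT libraries (wild type) and 2 Ezh2 -/- libraries (knockout), made with the Active Motif 39155 antibody and sequenced on the SOLiD platform. Experiment 2 held 2 wild-type, 2 knockout, 1 Ezh1 pre-rescue and 1 Ezh2 pre-rescue library, made with antibody clone 7b11 and sequenced on the Illumina platform. Besides 39155, the paper lists for ChIP-seq an antibody against both the dimethylated and the trimethylated form, without naming its clone. Whether that antibody is clone 7b11 is not stated. Whether peaks of experiment 2 also reflect dimethylation was not tested. In the rescues, Flag-tagged Ezh1 or Ezh2 had been introduced by retrovirus before the endogenous gene was deleted. The labels call the cells WT/WT, whereas the methods describe a floxed clone before deletion, and every group carries the c-Myc retrovirus and comes from the same clone, so that other clones are not represented. The peak lists do not check the genotype.

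CDK inhibitors bind cyclin-CDK complexes and hold cells in G1. Proteins of the Cip/Kip family (p21, p27 and p57, from Cdkn1a, Cdkn1b and Cdkn1c) bind several cyclin-CDK complexes, whereas those of the INK4 family (p16Ink4a, p15, p18 and p19Ink4d, from Cdkn2a, Cdkn2b, Cdkn2c and Cdkn2d) bind Cdk4 and Cdk6. Cdkn2a also encodes p19Arf, which restrains Mdm2 and thereby stabilizes p53. Dab2ip encodes a Ras GTPase-activating protein that acts as a tumor suppressor. Ezh2 and Ezh1 are the alternative catalytic subunits of PRC2, the complex that trimethylates lysine 27 of histone H3, a mark of Polycomb-silenced genes, and the Ink4a/Arf locus is a textbook Polycomb target in cultured fibroblasts.

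The 250 bases upstream of 5 annotated starts are given below to show the sequence next to the peaks that were or were not called, 5' to 3' on the strand of the gene, from the NCBIM37 (mm9) genome, with CpG dinucleotides in capitals. Cdkn1a-003 (chr17:29227674-29227923, plus strand) is the 5' end of Cdkn1a, and Cdkn1a-001 (chr17:29230467-29230716, plus strand) lies before a start 2793 bp further in. Dab2ip-003 (chr2:35413536-35413785, plus strand) is the 5' end of Dab2ip. Cdkn2a-002 (chr4:88940558-88940807, minus strand) precedes the start of the p19Arf transcript, and Cdkn2a-001 (chr4:88928097-88928346, minus strand) that of the p16Ink4a transcript, 12461 bp downstream.
Cdkn1a-003: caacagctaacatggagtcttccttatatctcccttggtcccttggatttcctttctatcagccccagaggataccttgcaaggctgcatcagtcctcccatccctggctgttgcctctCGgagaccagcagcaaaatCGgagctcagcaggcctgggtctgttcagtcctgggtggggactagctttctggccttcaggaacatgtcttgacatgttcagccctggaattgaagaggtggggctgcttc
Cdkn1a-001: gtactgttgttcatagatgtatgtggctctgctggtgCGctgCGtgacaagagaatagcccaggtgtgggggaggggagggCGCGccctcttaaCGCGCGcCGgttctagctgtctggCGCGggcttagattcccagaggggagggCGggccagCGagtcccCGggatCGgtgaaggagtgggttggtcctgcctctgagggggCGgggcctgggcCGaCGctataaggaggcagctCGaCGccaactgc
Dab2ip-003: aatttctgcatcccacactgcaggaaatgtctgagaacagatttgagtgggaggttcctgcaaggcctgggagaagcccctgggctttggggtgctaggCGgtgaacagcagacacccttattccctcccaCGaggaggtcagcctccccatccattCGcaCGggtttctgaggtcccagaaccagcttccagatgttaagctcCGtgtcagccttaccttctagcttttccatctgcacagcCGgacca
Cdkn2a-002: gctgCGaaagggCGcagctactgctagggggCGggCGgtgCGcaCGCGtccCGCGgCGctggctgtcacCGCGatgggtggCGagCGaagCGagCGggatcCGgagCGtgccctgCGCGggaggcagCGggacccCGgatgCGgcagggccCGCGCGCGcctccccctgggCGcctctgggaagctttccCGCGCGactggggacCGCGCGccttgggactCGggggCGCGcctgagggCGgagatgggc
Cdkn2a-001: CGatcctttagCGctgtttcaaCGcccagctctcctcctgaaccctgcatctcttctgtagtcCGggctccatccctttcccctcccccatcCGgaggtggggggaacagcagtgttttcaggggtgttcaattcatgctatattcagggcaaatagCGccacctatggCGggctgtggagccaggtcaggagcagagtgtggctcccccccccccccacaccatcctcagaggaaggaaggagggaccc
The upstream sequence of Cdkn1a-003 holds 2 CpGs and that of Cdkn1a-001 holds 19. The sequence of Dab2ip-003 holds 6, that of Cdkn2a-002 holds 38 and that of Cdkn2a-001 holds 7. The median of 22362 upstream sequences of the same length is 8, and 92.5% of them hold at least 1. Over the whole 5001-bp promoter window, Cdkn1a had 55 CpGs and Dab2ip 72, both under the median of 96 over all genes, whereas Cdkn1c had 322 and Cdkn2a 209. Cdkn1b had 193, Cdkn2c 185, Cdkn2d 123 and Cdkn2b 113. Among the 8 genes, the promoter windows with the fewest CpGs were thus those of Cdkn1a and Dab2ip, the genes with the most promoter coverage in wild-type cells. For Cdkn1a this depends on the start that was used. Its window, set around Cdkn1a-003, ended at chr17:29230424 and left out the 250 bases upstream of Cdkn1a-001 with their 19 CpGs. Dab2ip has 13 distinct starts, and its CpGs were counted around the 5' end, that of Dab2ip-003, only.

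Peaks covered 141 and 177 Mb of the genome in the wild-type libraries of experiment 1, 24.3 and 56.7 Mb in its knockout libraries, and 14.9 and 11.3 Mb in the wild-type libraries of experiment 2. The Ezh1 rescue list covered 256 Mb and the Ezh2 rescue list 80.6 Mb. The knockout lists of experiment 2 held 29 and 382 peaks only. Since positions are all that a list holds, the number of reads at a peak is unknown, and a missing peak does not show that the mark was absent. The experiments differ in antibody and platform, so each was analysed alone. The covered share of a window is given as a percentage. Of 10 fibroblast marker genes, none had a promoter peak in both wild-type libraries of experiment 1, which is a weak check of the cell type, since 20.1% of all genes had one. Vim and Prrx1, 2 of these 10 genes, had promoter peaks in both knockout libraries and in neither wild-type library (Vim 34.0% and 25.5%, Prrx1 11.8% and 6.68%). They were named after their values were seen. Over all genes, 3.76% had both knockout libraries above both wild-type libraries in covered promoter base pairs. Whether these knockout peaks reflect H3K27me3 was not tested.

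Cdkn1a and Dab2ip had promoter peaks in all wild-type libraries and none in the knockout, in both experiments. Most of the window was covered at Cdkn1a in both experiments and at Dab2ip in experiment 1, whereas Dab2ip had at most 16.7% in experiment 2. Cdkn1c carried the mark on either side of its 5' end, most widely in the Ezh1 rescue and the wild-type libraries of experiment 1, and its locus also had peaks in both knockout libraries of experiment 1. The 5 other CDK inhibitor genes had no promoter peak in any wild-type or rescue library. In any 1 of these libraries only 6.07% to 28.2% of all genes had such a peak, so most genes lacked one as well. In experiment 1, a promoter peak in both wild-type libraries was found for 3 of 8 genes, against 20.1% of all protein-coding genes, and a peak in both wild-type and neither knockout library for 2 of 8 (Cdkn1a and Dab2ip), against 18.6%. In experiment 2, 2 of 8 genes had a promoter peak in both wild-type libraries, against 3.11%, and the same 2 had none in the knockout, against 3%. Most genes with a peak in both wild-type libraries had none in the knockout, 4163 of 4506 in experiment 1 and 670 of 695 in experiment 2. The lack of a knockout peak is thus not particular to these 2 genes. Both knockout libraries carried a promoter peak at none of the 8 genes, against 4.47% of all genes in experiment 1 and 0.0358% in experiment 2. A peak in all wild-type libraries and both rescues with none in the knockout was found for the same 2 genes, against 2.33%. In all 10 libraries, Cdkn2a, Cdkn2b and Cdkn2d had no promoter peak, 3 of 8 genes against 59.0%. With 8 genes, these shares are descriptions, and the median promoter coverage was 0 in every library for the 8 genes as for all genes.

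**Figure D1:**
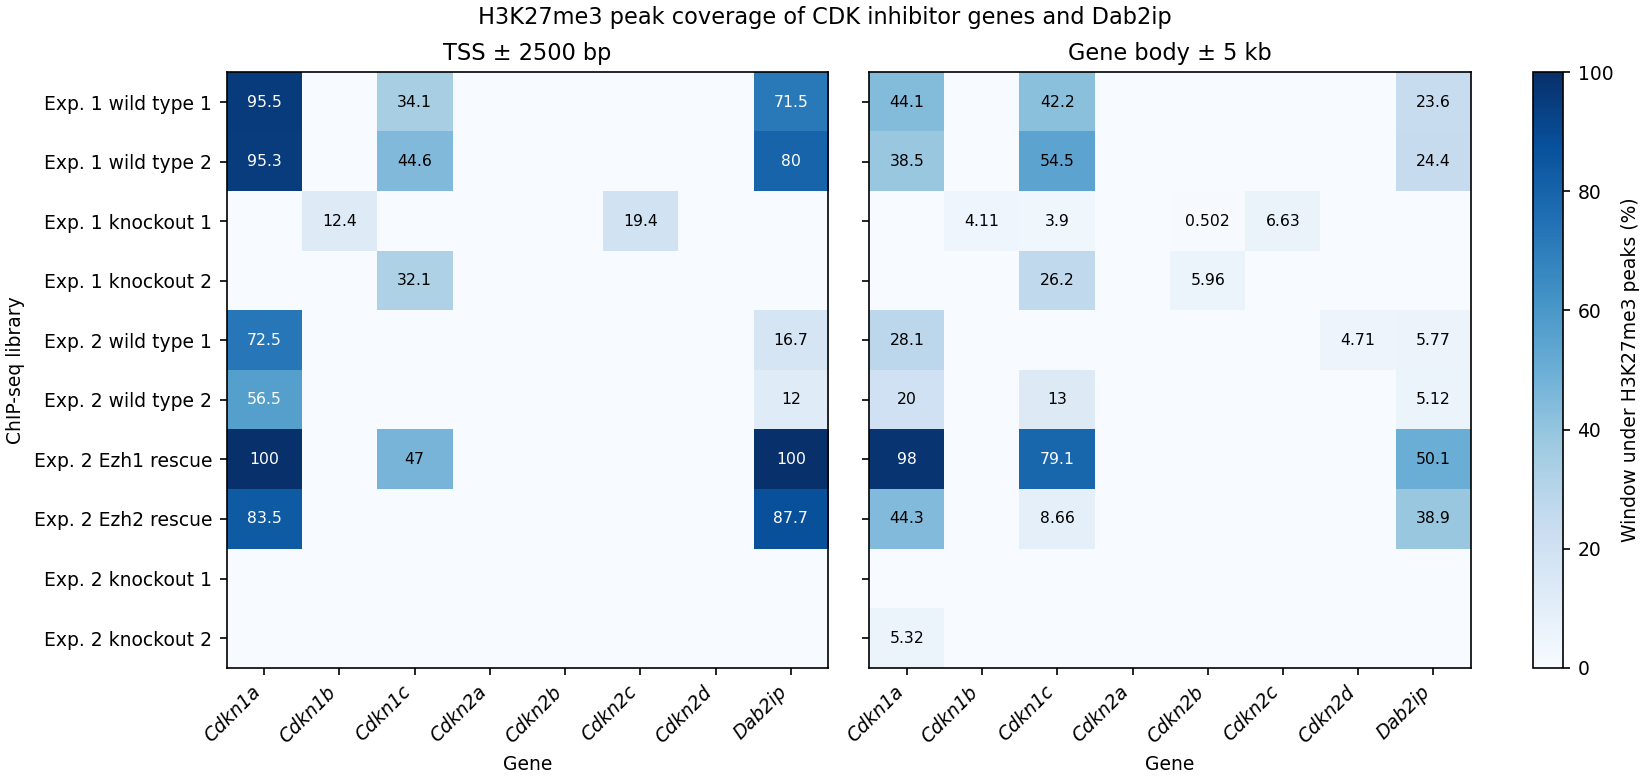
Percentage of the promoter window (left, TSS with 2500 bp on either side) and of the gene locus (right, gene body with 5 kb on either side) under H3K27me3 peaks, for the 8 genes (columns) in the 10 ChIP-seq libraries (rows). Printed numbers are the percentages above 0. The Cdkn1a and Dab2ip columns are filled in the wild-type and rescue rows and empty in the knockout rows, except for 5.32% of the Cdkn1a locus in 1 knockout library of experiment 2.

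Cdkn1a, which encodes p21, the CDK inhibitor induced by p53, was among the most widely covered promoters. The gene (ENSMUSG00000023067.7) lies at chr17:29227924-29237667 on the plus strand. In experiment 1, 95.5% and 95.3% of its promoter window lay under peaks in the wild-type libraries and 0% in both knockout libraries. The wild-type mean was 95.4% ± 0.18 (SD, n = 2), and both wild-type libraries were above both knockout libraries, as for 19.6% of all genes. In experiment 2, the wild-type libraries had 72.5% and 56.5%, a mean of 64.5% ± 11.3 (SD, n = 2), and the knockout libraries again 0%. Here 3.03% of all genes had both wild-type libraries above both knockout libraries. The groups did not overlap in either experiment, and the exact permutation test, two-sided, gave p = 0.33 in each, the smallest value that 2 against 2 libraries allow. No gene can therefore pass a significance threshold by this test. Of the promoters with a peak in the same library, 93.8% and 90.5% had less coverage than Cdkn1a in the wild-type libraries of experiment 1, and 99.5% and 98.5% in those of experiment 2.

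The peaks of Cdkn1a began upstream of the gene and ran into it, mainly over introns (6132 of 6426 covered base pairs of the gene in wild-type replicate 1 of experiment 1). Introns make up 7521 of the 9744 bp of the gene. In experiment 1 a single peak of 8199 bp reached from -2276 to 5922 bp relative to the 5' end in wild-type replicate 1, and a peak of 6629 bp from -2263 to 4365 bp in replicate 2. In experiment 2 the same stretch was split. A first peak began at -1473 bp in both wild-type libraries and ended at -74 and -24 bp, before the 5' end, and the next began 277 bp and 477 bp inside the gene. The 5' end itself was thus under a peak in experiment 1 and between peaks in experiment 2. None of the 477 coding base pairs lay under a peak in the 4 wild-type libraries, where peaks took 65.9% and 54.7% of the gene in experiment 1 and 34.4% and 25.7% in experiment 2. In the locus, the wild-type libraries of experiment 1 shared 7291 bp, or 83.8% and 96.0% of their own covered base pairs, and those of experiment 2 shared 2950 bp, or 53.2% and 74.7%.

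The Cdkn1a starts differed in coverage. Around the CpG-rich start of Cdkn1a-001, peaks took 100% and 82.1% of the window in the wild-type libraries of experiment 1 and 47.7% and 49.99% in those of experiment 2. Around the third start, of Cdkn1a-002, 7228 bp inside the gene, they took 34.0% and 19.3% in experiment 1 and 19.0% and 0% in experiment 2. In the knockout, none of the 3 starts had a peak in its window in any of the 4 libraries. Coverage thus decreased from the 5' end towards the 3' end in the wild-type libraries, with the exception of replicate 1 of experiment 1, in which the second start had more than the first.

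**Figure D2:**
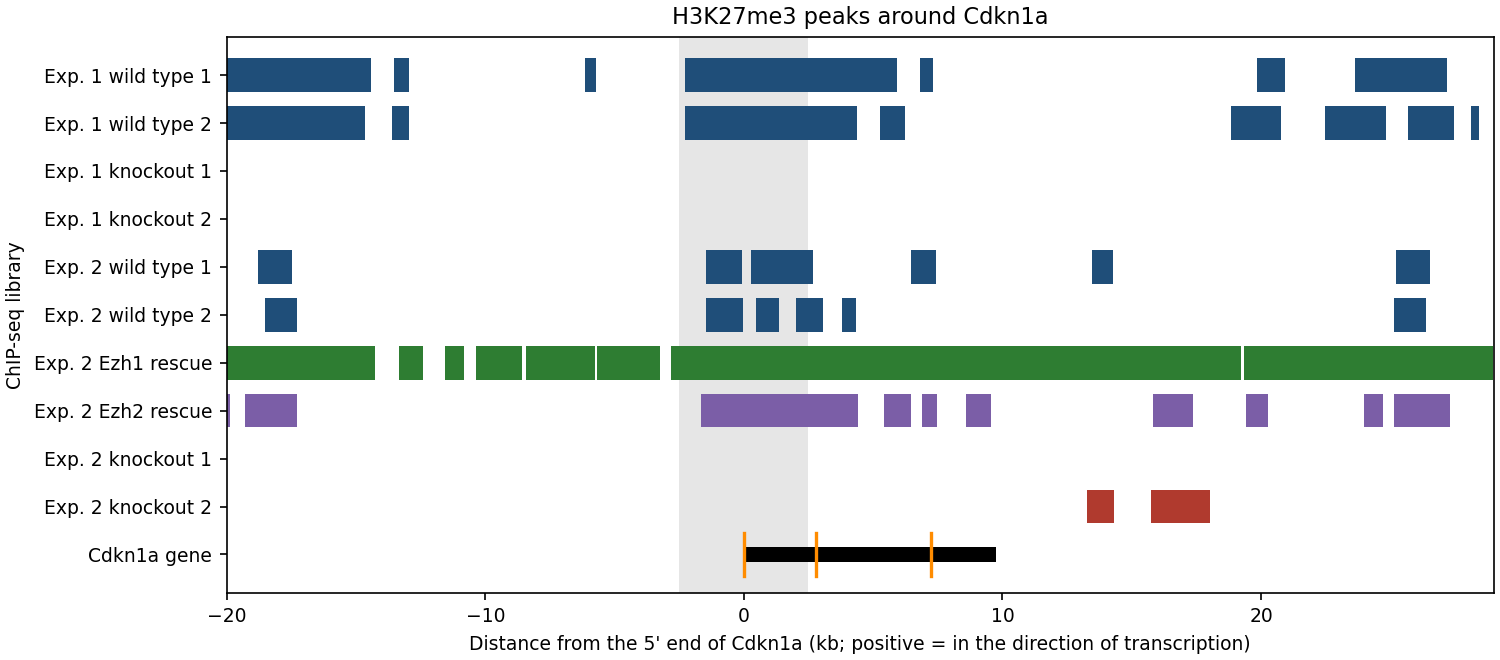
H3K27me3 peaks (bars) in each of the 10 libraries against the distance from the 5' end of Cdkn1a in kb, with the gene as a black bar, annotated transcript starts as orange ticks and the promoter window shaded. Peaks span the 5' end or lie on either side of it in the wild-type libraries, a peak of 22050 bp spans the whole gene in the Ezh1 rescue, and the knockout rows are empty but for 2 peaks downstream of the gene in 1 library of experiment 2.

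In the rescues, Cdkn1a had peaks with either enzyme. Peaks of the Ezh1 rescue covered 100% of the promoter window, and those of the Ezh2 rescue 83.5%. Over the locus the values were 98.0% and 44.3%, next to 28.1% and 20.006% in the wild-type libraries of the same experiment. The peak of the Ezh1 rescue spanned 22050 bp, the whole gene with its coding sequence, whereas that of the Ezh2 rescue spanned 6100 bp, from -1673 to 4426 bp, and 48 of 477 coding base pairs lay under peaks of this library. All 8750 bp covered in the Ezh2 rescue and all base pairs covered in each of the 4 wild-type libraries lay under peaks of the Ezh1 rescue, of which the 8750 bp were 45.2%. Each rescue is 1 library, so these differences have no replicate check. Per the methods, a coefficient that followed the amount of immunoprecipitated DNA was applied to the knockout and the Ezh1 rescue, and the lists do not show whether this preceded the peak calling, so that a wider peak is not a measure of more H3K27me3. By Western blot, the paper reports less H3K27me3 in total with Ezh1 than with Ezh2. It also describes the mark as weaker along the genome with Ezh1. The Ezh1 rescue list as a whole nevertheless covered more of the genome than the Ezh2 rescue list (256 and 80.6 Mb). Both covered more than the wild-type lists of experiment 2 (14.9 and 11.3 Mb). The part of this in the differences at Cdkn1a was not tested.

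In the knockout, the Cdkn1a locus had no peak in experiment 1 and in replicate 1 of experiment 2. Replicate 2 of experiment 2 had a peak of 1050 bp, from 13277 to 14326 bp downstream of the 5' end, beyond the 3' end of the gene and inside the 5-kb flank (5.32% of the locus). A wild-type peak of the same experiment, in replicate 1, lay at 13477 to 14276 bp. Of the nearest protein-coding neighbours, Srsf3, upstream, which encodes a splicing factor, had no promoter peak in wild-type cells and 26.6% and 24.2% coverage in the knockout libraries of experiment 1, the opposite direction to Cdkn1a. Downstream, Rab44 had 5.62% and 17.0% in the wild-type libraries of experiment 1, and 83.0% and 36.0% in the Ezh1 and Ezh2 rescues.

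Dab2ip carried the mark over the 5' part of a long gene. The gene (ENSMUSG00000026883.10) lies at chr2:35413786-35586514 on the plus strand and spans 172729 bp with 14 annotated transcripts. In experiment 1, 71.5% and 80.0% of its promoter window lay under peaks in the wild-type libraries, a mean of 75.8% ± 6.04 (SD, n = 2), and 0% in both knockout libraries. In experiment 2, the wild-type libraries had 16.7% and 11.998%, a mean of 14.4% ± 3.34 (SD, n = 2), and the knockout libraries 0%. The groups did not overlap in either experiment (exact permutation test, two-sided, p = 0.33 in each). Both wild-type libraries were above both knockout libraries for 19.6% of all genes in experiment 1 and 3.03% in experiment 2. In experiment 2 the peaks of wild-type replicate 1 lay at the edges of the window, from -2385 to -1736 bp and from 2315 bp on, and that of replicate 2 from -35 to 564 bp, so that Dab2ip was no longer called in both libraries with 1000 bp on either side, or with peaks of at least 1000 bp. The coverage in experiment 2 was close to that of a typical marked promoter there, with a median of 16.0% in replicate 1 and 15.6% in replicate 2, and unlike Cdkn1a, Dab2ip was above 52.9% and 25.6% of the marked promoters only. In experiment 1 it was above 77.0% and 79.2%. The peaks of the wild-type libraries of experiment 2 shared 2200 bp of the locus, 20.9% and 23.5% of their covered base pairs, against 81.9% and 79.1% in experiment 1. In experiment 2 the peaks called in the wild-type libraries thus mostly lay apart, though a missing peak does not show that the mark was absent.

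The coverage of Dab2ip fell with distance from the 5' end in the wild-type libraries of experiment 1. In the first 25 kb of the gene it was 85.1% and 91.6% in the wild-type libraries of experiment 1, and between 25 and 50 kb it was 34.0% and 37.5%. It was 21.2% and 24.5% between 50 and 75 kb, 10.8% and 9.86% between 75 and 100 kb, and 4.26% and 0% between 100 and 125 kb. From 125 kb to the 3' end, no library of the 10 had a peak. In experiment 2 the wild-type libraries had 16.3% and 9% in the first 25 kb, 16.8% and 14.1% in the next, and at most 11.4% beyond. Coverage there did not fall over the first 2 segments. In replicate 2 the value between 50 and 75 kb (11.4%) was also above that of the first 25 kb. The last stretch was again without peaks. Starts within the covered part were under peaks as well. Around the start 63715 bp inside the gene (Dab2ip-008), coverage was 76.0% and 59.4% in the wild-type libraries of experiment 1 and 13.997% and 24.995% in those of experiment 2. Around the start at 133728 bp and all later ones it was 0% in every library. In these wild-type libraries the mark lay mainly in introns, which make up 164363 of the 172729 bp of the gene. None of 4125 coding base pairs lay under peaks in experiment 1, and 0 and 40 did in experiment 2.

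**Figure D3:**
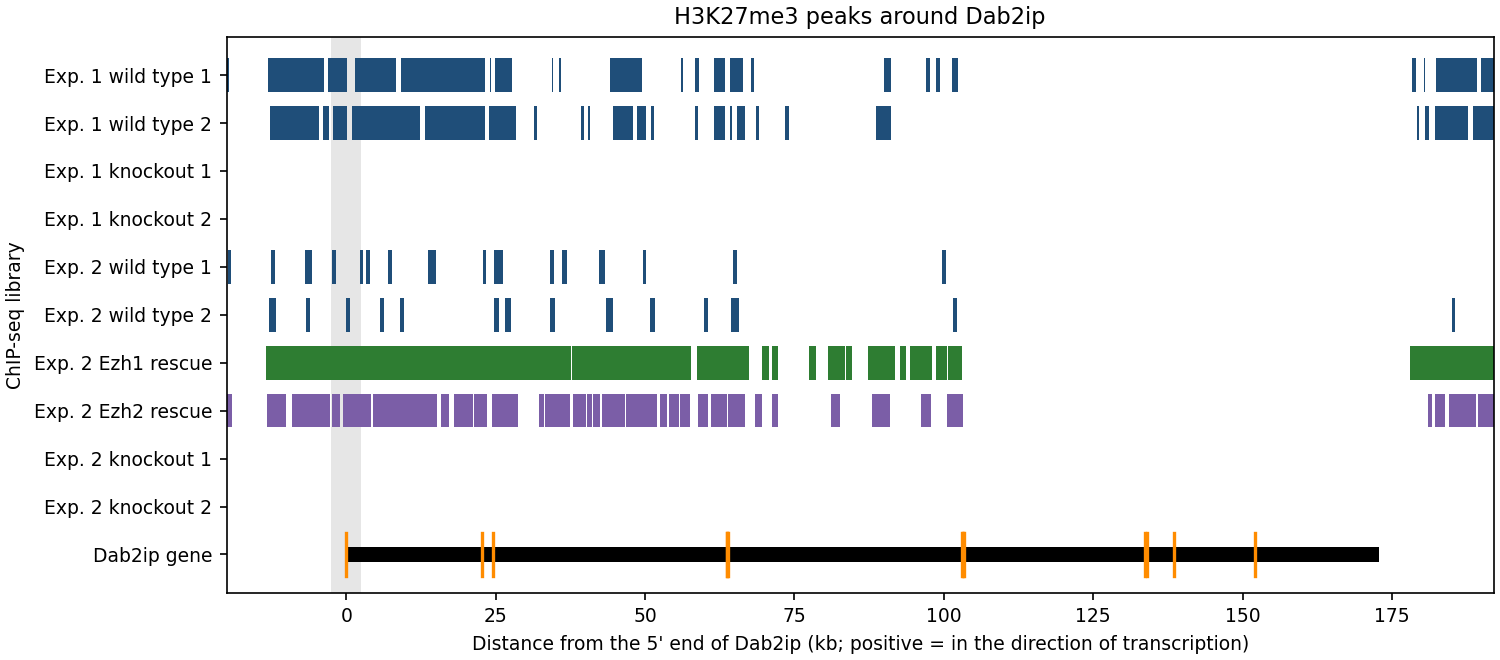
H3K27me3 peaks (bars) in each of the 10 libraries against the distance from the 5' end of Dab2ip in kb, with the gene as a black bar, annotated transcript starts as orange ticks and the promoter window shaded. The peaks of the rescues and of the wild-type libraries of experiment 1 are densest in the first 25 kb, no library has a peak in the gene beyond 125 kb, and the 4 knockout rows are empty.

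In the rescues, Dab2ip was covered more widely than in the wild-type libraries of the same experiment. This was so for the lists as a whole. The Ezh1 and Ezh2 rescue lists covered 256 and 80.6 Mb of the genome, against 14.9 and 11.3 Mb in wild type. The part of this in the difference at Dab2ip was not tested. The promoter window had 100% with Ezh1 and 87.7% with Ezh2, and the locus 50.1% and 38.9%, next to 5.77% and 5.12% in wild type. Along the gene, the Ezh1 rescue had 100% in the first 25 kb, 99.6% in the next, 73.7% between 50 and 75 kb, 61.1% between 75 and 100 kb and 11.5% between 100 and 125 kb. The Ezh2 rescue had 88.2%, 79.2%, 64.1%, 25.2% and 10.6% in the same segments. Both ended before 125 kb, as the wild-type peaks did. The rescues differed more in how the stretch was divided than in its ends: the locus held 14 peaks in the Ezh1 rescue, the widest of 51050 bp, and 31 in the Ezh2 rescue. Of the base pairs covered in the Ezh2 rescue 97.9% lay under peaks of the Ezh1 rescue, and 76.0% the other way round. No library of the knockout had a peak within the Dab2ip locus. The neighbouring gene upstream, Ggta1, had no promoter peak in any of the 10 libraries. Downstream, Ttll11 had 12.997% in wild-type replicate 1 of experiment 2, 14.997% with Ezh1 and 4.66% with Ezh2, and no promoter peak elsewhere.

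Cdkn1c, the imprinted gene of p57, differed from both. The gene (ENSMUSG00000037664.6) lies at chr7:150644255-150646955 on the minus strand. Its promoter window was covered to 34.1% and 44.6% in the wild-type libraries of experiment 1 (39.3% ± 7.37, SD, n = 2) and to 0% and 32.1% in the knockout libraries (16.1% ± 22.7, SD, n = 2). Both wild-type values were above both knockout values, as for 3 of the 8 genes and 19.6% of all genes. The difference of 23.3 percentage points was, however, of the size of the spread between libraries of the knockout, with p = 0.33 by the exact permutation test. With a window of 1000 bp on either side the difference was -3.37 points, that is, higher in the knockout. In experiment 2 no wild-type or knockout library had a promoter peak.

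The 5' end and the coding sequence of Cdkn1c were free of peaks, whereas the 3' end was not. Peaks took 492 and 611 bp of the 2701-bp gene in the wild-type libraries of experiment 1, 156 bp in knockout replicate 2 of experiment 1 and 346 bp with the Ezh1 rescue, with no coding base pair among them. A stretch of 2385 bp, chr7:150644866-150647250, which holds the 5' end and all 1044 coding base pairs, had no peak in any of the 10 libraries. On either side peaks resumed. In the 20 kb upstream of the 5' end, 73.3% and 85.0% was covered in the wild-type libraries of experiment 1, and 61.9% and 70.4% in the 20 kb downstream. The knockout libraries had 2.48% and 24.6% upstream and 0% and 14.8% downstream. Those of the wild type in experiment 2 had 3.25% and 13.8% upstream and 5.25% and 2.75% downstream. Knockout replicate 2 of experiment 1 had 6 peaks in the locus, where 59.3% and 73.5% of its covered base pairs lay under peaks of wild-type replicates 1 and 2. This knockout library covered more of the genome than the other (56.7 and 24.3 Mb), and the part of this in the result was not tested.

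**Figure D4:**
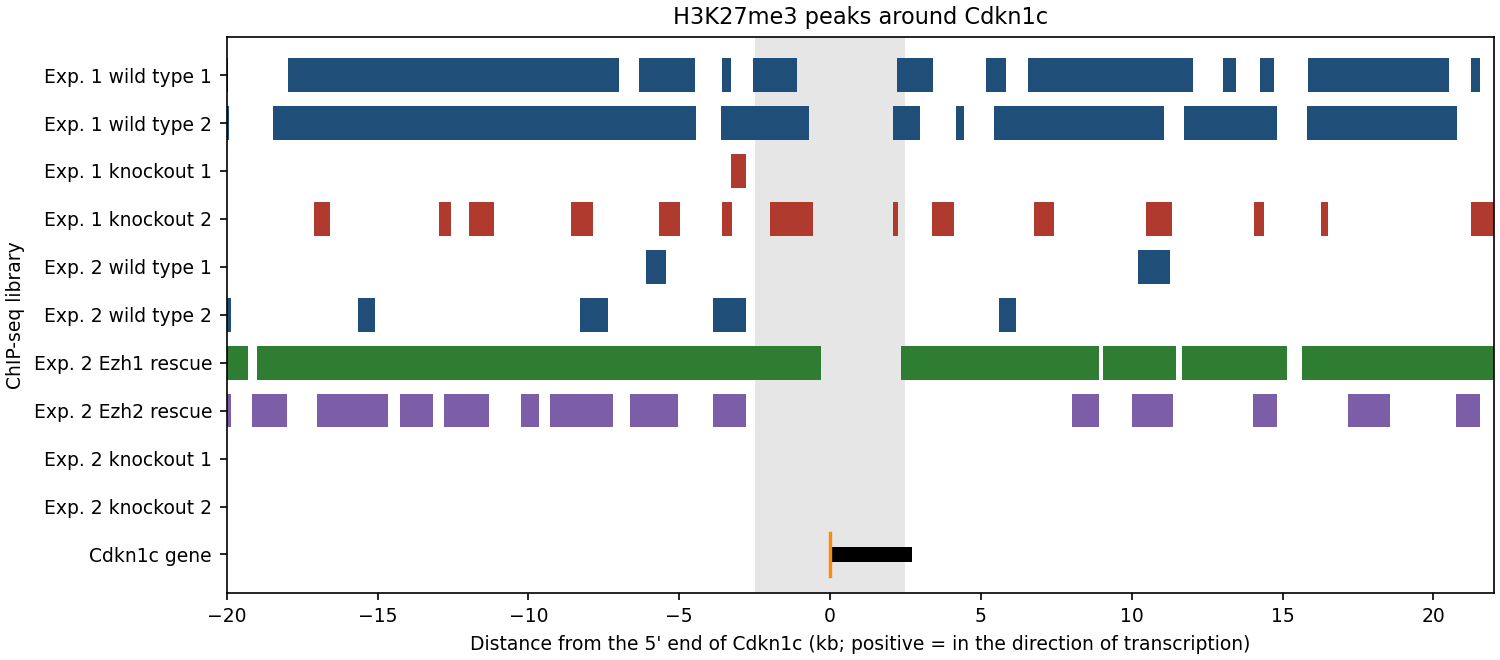
H3K27me3 peaks (bars) in each of the 10 libraries against the distance from the 5' end of Cdkn1c in kb, with the gene as a black bar, the transcript start as an orange tick and the promoter window shaded. Peaks flank the 5' end in the wild-type libraries of experiment 1 and in the Ezh1 rescue and leave a gap of 2385 bp over the 5' end and the coding sequence, and knockout replicate 2 of experiment 1 has shorter peaks on both sides of the same gap.

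Of the 8 genes, Cdkn1c differed most between the rescues. Its promoter window had 47.0% with Ezh1 and 0% with Ezh2, and the locus 79.1% and 8.66%. As at Cdkn1a and Dab2ip, the wider coverage with Ezh1 is not a measure of more H3K27me3, of which the paper reports less with Ezh1. With 5000 bp on either side of the 5' end, the Ezh2 rescue had a peak in the window as well. Among all genes, 18.9% had at least 2 times as many promoter base pairs under peaks in the Ezh1 rescue as in the Ezh2 rescue, and of the 8 genes only Cdkn1c did. In the locus Cdkn1a did as well, 2 of 8 against 31.1%. Promoter peaks were found for 3 of 8 genes in the Ezh1 rescue, against 28.2%, and for 2 of 8 in the Ezh2 rescue, against 18.8%. The 20 kb upstream of Cdkn1c was covered to 97.0% and 58.3% in the Ezh1 and Ezh2 rescue, so that the gap around the gene was wider in the Ezh2 rescue, where the nearest upstream peak ended at -2796 bp, against -296 bp in the Ezh1 rescue.

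Neighbours of Cdkn1c in its imprinted domain were examined as well. Of 9 matched genes of the domain, 5 had a promoter peak in both wild-type libraries of experiment 1, against 20.1% of all genes, and 3 of them had no knockout peak, against 18.6%. In experiment 2 both wild-type libraries had a peak at 1 of 9, against 3.11%, and each rescue at 5 of 9, against 28.2% with Ezh1 and 18.8% with Ezh2. Slc22a18, which encodes a membrane transporter, was covered to 100% in both wild-type libraries of experiment 1, to 0% and 24.3% in the knockout and to 100% and 64.0% in the Ezh1 and Ezh2 rescue. Kcnq1, a potassium channel gene, had 83.7% in both wild-type libraries, 0% in both knockout libraries and 100% and 86.0% in the rescues. Phlda2 had means of 90.9% in wild type, with 9.10% and 18.8% in the knockout libraries, and Ascl2, a bHLH transcription factor gene, had 60.6% in wild type and 0% in both knockout libraries. In the Ezh2 rescue Ascl2 had 1.64% and Phlda2 49.0%. These 4 genes all had a promoter peak in the Ezh2 rescue, where Cdkn1c had none.

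The other Cip/Kip gene, Cdkn1b (p27; ENSMUSG00000003031.8, chr6:134870419-134875531, plus strand), had no peak in its promoter or locus in the 4 wild-type and 2 rescue libraries. Knockout replicate 1 of experiment 1 had a peak of 621 bp, from 975 to 1595 bp inside the gene, which took 12.4% of the promoter window and overlapped 60 coding base pairs and the 561-bp intron. Knockout replicate 2 had none, and its nearest peak was 335253 bp away. In the wild-type libraries of experiment 1 the nearest peaks were 126036 and 127603 bp away. The difference did not hold between the replicates of the knockout (exact permutation test, two-sided, p = 1).

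Cdkn2a, the gene of p16Ink4a and p19Arf (ENSMUSG00000044303.5, chr4:88920377-88940557, minus strand), had no peak in its promoter or locus in any library. This was the case of 40% of all genes for the locus, and Cdkn2a was the only gene of the 8. The windows around both the p19Arf and the p16Ink4a start were without a peak in all 10 libraries. The peak-free stretch around Cdkn2a and Cdkn2b measured 55292 bp over the 10 libraries, 155480 bp over the 4 wild-type libraries and 328900 bp over the 2 rescues. The nearest wild-type peaks in experiment 1 lay 51923 and 34787 bp downstream of the 5' end. In experiment 2 they lay 39207 bp downstream and 412794 bp upstream. Cdkn2a has many CpGs in its promoter window (209, more than 94.3% of all genes), which does not set it apart from Cdkn1b and Cdkn2c, with 193 and 185, likewise without wild-type peaks.

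**Figure D5:**
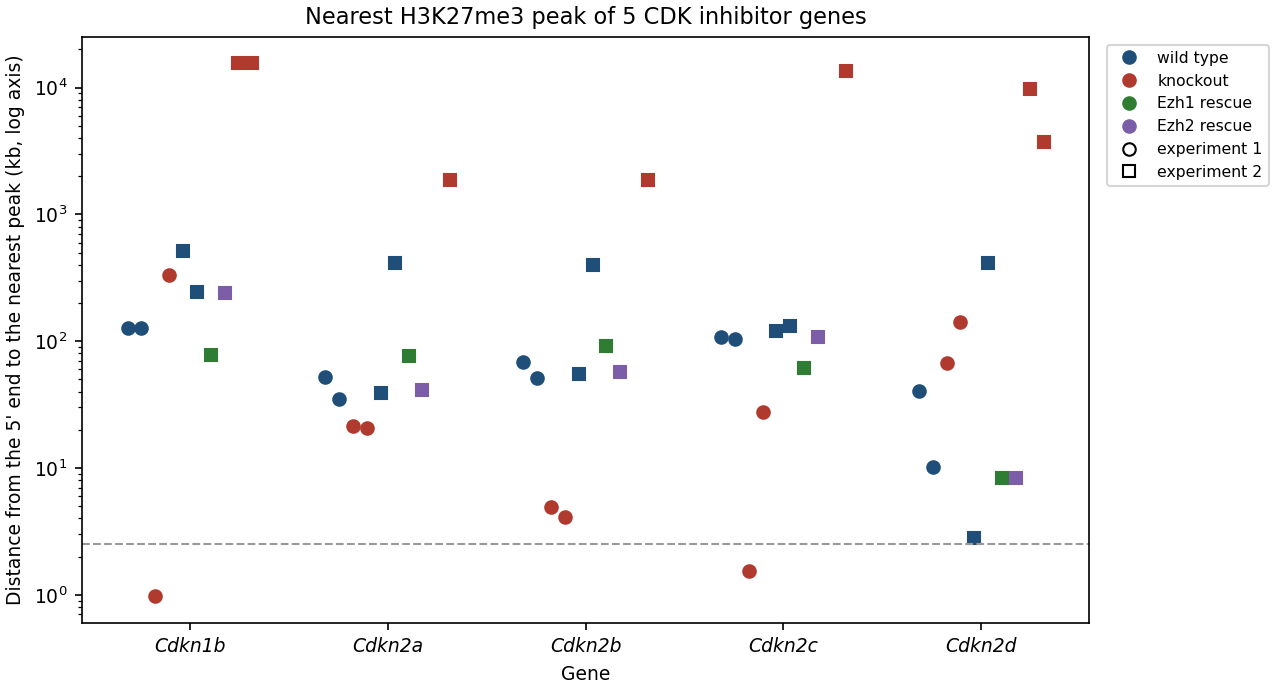
Distance in kb, on a log axis, from the 5' end of each of 5 CDK inhibitor genes to the nearest H3K27me3 peak in each library, with circles for experiment 1, squares for experiment 2 and the limit of the promoter window at 2.5 kb as a dashed line. Points are missing where a library has no peak on the chromosome. The points under the line are those of knockout replicate 1 of experiment 1 at Cdkn1b and Cdkn2c, and both knockout libraries of experiment 1 are closer to Cdkn2b than any other library.

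Cdkn2b (p15; ENSMUSG00000073802.4, chr4:88952198-88956941, minus strand), 11640 bp from Cdkn2a, had no promoter peak in any library. Both knockout libraries of experiment 1 had a peak just upstream, of 714 bp from -5640 to -4927 bp and of 1481 bp from -5602 to -4122 bp relative to the 5' end, which reached the locus with 74 and 879 bp. No wild-type or rescue library had a peak in the locus. Both knockout libraries were thus above both wild-type libraries over the locus, as for 9.39% of all genes (exact permutation test, two-sided, p = 0.33), and Cdkn2b was 1 of 8 genes. The locus of Cdkn1c also had peaks in both knockout libraries, 2 of 8 genes against 12.5%.

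Cdkn2c (p18; ENSMUSG00000028551.8, chr4:109333481-109339794, minus strand) resembled Cdkn1b. Knockout replicate 1 of experiment 1 had a peak of 1082 bp at 1532 to 2613 bp inside the gene, 19.4% of the promoter window, with 403 exonic and 129 coding base pairs. Knockout replicate 2 and all wild-type and rescue libraries had no peak in the locus. A promoter peak in 1 knockout and no wild-type library was found for 2 of 8 genes (Cdkn1b and Cdkn2c), against 4.99% of all genes, both in the same library. Cdkn2d (p19Ink4d; ENSMUSG00000066860.6, chr9:21092907-21095653, minus strand) had no promoter peak in any library. Wild-type replicate 1 of experiment 2 had a peak of 600 bp from -3397 to -2798 bp, in the locus, and the nearest peak of either rescue lay 8298 bp upstream. The nearest peak of wild-type replicate 2 was 415953 bp away.

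Over the locus, a peak in both wild-type and neither knockout library was found in experiment 1 for Cdkn1a and Dab2ip, 2 of 8 against 25.1%, and in experiment 2 for Dab2ip, 1 of 8 against 10.7%. With at least 10% of the locus under peaks, it was Cdkn1a and not Dab2ip in experiment 2. Cdkn1a was not counted in experiment 2 because of the knockout peak in its 3' flank.

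Partners and regulators of the CDK inhibitors were taken from lists of genes. Of 10 G1 cyclins and CDKs, 5 had a promoter peak in both wild-type libraries of experiment 1, 4 of them with none in the knockout. The counts were 2 and 2 of 13 for the RB and E2F family, 1 and 1 of 10 for the p53 axis, 3 and 2 of 9 for Ras GTPase-activating proteins, and 3 and 3 of 10 for regulators of Ink4a/Arf. These are to be read against 20.1% and 18.6% of all genes. In experiment 2, both wild-type libraries had a promoter peak at 1 of the cyclins and CDKs, 1 of the RB and E2F family, none of the p53 axis, 1 of the Ras GTPase-activating proteins and 2 of the regulators of Ink4a/Arf, against 3.11%.

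Among the targets of the INK4 proteins, Cdk6 was covered to 58.3% (mean of the wild-type libraries of experiment 1) with no knockout peak, and to 100% with Ezh1 and 57.0% with Ezh2. In experiment 1 Cdk4, by contrast, had wild-type values of 33.2% and 31.2% and knockout values of 39.3% and 27.4%, and these groups overlap. In experiment 2 Cdk4 had 26.2% and 17.2% in wild type and 0% in both knockout libraries, whose lists held 29 and 382 peaks only. In the wild-type libraries of experiment 1, Ccna1, the cyclin A1 gene, had 82.1% and Ccnd2, the cyclin D2 gene, 24.1%, both with none in the knockout. E2f6, which encodes a repressive E2F, had 42.0% in wild type, 82.6% in the Ezh1 rescue and no peak in the Ezh2 rescue, and E2f5 had 8.82% in wild type and no peak in either rescue. Trp73, a relative of p53, had 63.2% in wild type, none in the knockout, and 89.7% and 19.996% in the Ezh1 and Ezh2 rescues.

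Of the Ras GTPase-activating proteins, to which Dab2ip belongs, Rasal1 had 71.4% in the wild-type libraries of experiment 1 and 0% and 50.8% in the knockout libraries. In experiment 2 Rasal1 had 21.0% and 23.0% in wild type and 0% in both knockout libraries. Rasa3 had 28.0% and Rasal3 16.3% in the wild-type libraries of experiment 1, with none in the knockout. Among regulators of Ink4a/Arf, Tbx2, a T-box repressor, had 56.5%, Bmi1, a subunit of Polycomb repressive complex 1, had 30.5%, and Cbx8, another, had 19.7%, all with no knockout peak. In the Ezh1 and Ezh2 rescues, Tbx2 had 98.0% and 52.0%, Cbx8 had 36.7% and 28.7%, and Bmi1 had no peak in either.

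The genes most like Cdkn1a, by the root mean square difference in promoter coverage over the 10 libraries, were Ttll6 (5.07 percentage points), B3gnt7 (7.15) and Hap1 (8.06), all on other chromosomes. For Dab2ip they were H60b (3.16), Slc30a3 (3.40) and Slc4a11 (3.41). For Cdkn1c they were Epha10 (6.22), Tmem125 (6.89) and Cyp11b1 (7.21), each with peaks in knockout replicate 2 of experiment 1 and in the Ezh1 rescue but without an Ezh2 rescue peak. Slc4a11 is on chromosome 2, as Dab2ip is. This likeness is a description of coverage in 10 libraries.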

How the data were processed

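Peaks of H3K27me3 from 10 ChIP-seq libraries, grouped by their labels, were analysed, and 2 input samples were not used here. Per the methods, the authors aligned reads to mm9, discarded duplicates, down-sampled every sample to the same read number, scaled the knockout and the Ezh1 rescue by coefficients and ran the peak caller on every sample. Tools in the submitters' processing notes are HOMER 3.17, MACS2 2.0.10, SAMtools, Bowtie2 2.1.0 and Bowtie 0.12.8. The deposited lists hold positions only, so the lists do not show whether a coefficient was applied before calling, and the depth at each peak is unknown. Overlapping and duplicate peaks were joined, and mitochondrial peaks (1 in each of 2 lists) were left out. Positions are 1-based, in NCBIM37 (mm9). Overlap meant at least 1 bp.

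The genes and lists were chosen with earlier results of these data known. The genes named are the 8 genes, up to 4 genes of each list with a promoter peak in both wild-type libraries of experiment 1, by mean coverage, the nearest protein-coding neighbours and the 3 genes most like each marked gene in coverage. Vim and Prrx1 fall outside this rule and were named after their values were seen. Kcnq1ot1 was not matched. The exact permutation test of covered percentages, two-sided, set wild type against knockout. The density plots of the study are described as made from biological replicates, the labels number the libraries without naming separate cultures, and if the cultures were shared the spread is technical. The background is the same count over 22367 protein-coding genes. No set test was run. The interval code was tested on simulated data, with 0 mismatches in 4000 windows. Python 3.11.15, NumPy 2.4.6, SciPy 1.17.1 and matplotlib 3.10.9 were used.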

Additional observations from a re-analysis of the deposited data

Results flagged for a closer look

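Knockout replicate 2 of experiment 2 had a peak of 2300 bp downstream of Cdkn1a, from 15727 to 18026 bp from its 5' end (chr17:29243651-29245950), outside the promoter window and the locus. It was singled out because no wild-type library of the experiment had a peak there and knockout replicate 1 had none. The Ezh2 rescue had a peak at 15827 to 17376 bp, and the wide peak of the Ezh1 rescue also covered this stretch. It is 1 of 382 peaks of that library.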

How the results depend on the processing

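The number of genes with a promoter peak in both wild-type and neither knockout library of experiment 2 went from 2 to 1, Cdkn1a, with a window of 1000 bp on either side and with peaks of at least 1000 bp. In experiment 1 this promoter count went from 2 to 3, with Cdkn1c, when knockout replicate 2 was left out. The number with a locus peak in experiment 2 went from 1 to 2 with the gene body alone, and ranged from 1 to 2 when 1 library was left out. Cdkn1c was added without wild-type replicate 1, Cdkn2d without wild-type replicate 2 and Cdkn1a without knockout replicate 2. With at least 10% of the locus under peaks this number was still 1, but the gene was Cdkn1a in place of Dab2ip. The number with a promoter peak in both knockout libraries of experiment 1 went from 0 to 2, Cdkn1c and Cdkn2b, with 5000 bp on either side, and was 1 to 2 when a knockout library was left out (Cdkn1c without replicate 1, and Cdkn1b and Cdkn2c without replicate 2). The Ezh2 rescue promoter count went from 2 to 3, with Cdkn1c, at 5000 bp on either side. The Cdkn1c difference in experiment 1 turned to -3.37 percentage points with 1000 bp on either side. The Ezh1 minus Ezh2 rescue difference of the promoter was 0 for Cdkn1a with 1000 bp on either side and for Dab2ip with peaks under 1000 bp apart merged. Beyond window size, width limit and the libraries left out, the cause of these changes was not tested. A width limit of 550 bp, chosen after seeing the data because it is the smallest width in experiment 2, left the 7 counts as they were.

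Replicate numbers are shared between groups. The differences between replicate 1 and replicate 2 in wild type and in knockout correlated at 0.0332 in experiment 1 and -0.0277 in experiment 2 over 22367 genes. This does not settle whether the numbers pair the libraries, which the labels do not say. The knockout lists of experiment 2 had promoter peaks at 9 and 84 genes only, so that the correlation there could hardly show a pairing. With the replicate block, the differences were the same (95.4 points for Cdkn1a in experiment 1) and the exact sign-flip p was 0.5, the smallest that 2 pairs allow. The lists carry no read counts, so small differences in coverage cannot be weighed against counting error.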
